A study of Homo sapiens with 62 samples.

Results

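The 10 transcripts EGR1, IER2, IER3, IER5, ZFP36, ZFP36L1, BTG1, BTG2, DUSP1 and RGS2 were followed through a SLAM-seq experiment in human pancreatic ductal adenocarcinoma cells. They were taken by gene name, as immediate-early or short-lived transcripts, from the 29794 genes of the tables. SLAM-seq marks new RNA with 4-thiouridine (4sU). After alkylation this base is read as C, so a read with T>C conversions comes from RNA made while the label was present. Here 4sU was present for the last 2 h of each treatment.

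AsPC-1 (a model of the classical subtype, 42 libraries) and T3M-4 (a model of the basal-like subtype, 20 libraries) both carried the genotype FKBP12-F36V-FLAG-KLF5_sgEndogenousKLF5. A lentiviral copy of the transcription factor KLF5 fused to the FKBP12-F36V degron stood in for the endogenous gene, which had been inactivated with Cas9 and a guide RNA in selected pools of cells, and every group shared this background. The dTAG libraries had received the degrader dTAGv-1 for 4 h and the NEG libraries its inactive control dTAGv-1-NEG (10 and 10 libraries in AsPC-1, 4 and 4 in T3M-4). CB-6644, an inhibitor of the RUVBL1/2 ATPases, was compared with DMSO at 4 h (5 and 5 libraries in AsPC-1, 4 and 4 in T3M-4) and, in AsPC-1, at 12 h (4 and 4). NVP-2, an inhibitor of CDK9, the kinase that releases paused RNA polymerase II, was given for 4 h to 4 libraries of each line and compared with the DMSO 4 h libraries.

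The deposited values were counts of reads over the 3′UTR exons of each gene, of which those with T>C conversions are called T>C reads. Per library there were 8296433 to 18311982 T>C reads in AsPC-1 and 13562612 to 27982537 in T3M-4, and after NVP-2 2240998 to 3517345 and 3714015 to 4982006. T>C reads made up 7.58% to 10.6% of all reads in AsPC-1 and 11.0% to 14.3% in T3M-4, and after NVP-2 1.35% to 1.91% and 1.80% to 2.80%. For AsPC-1 dTAG library 3.1 the deposited counts of all reads were not used, because it held the values of another library's T>C column, so totals and labelled shares rest on 9 dTAG libraries there. All 5 epithelial marker genes were at or above 1 CPM (counts scaled to library depth) in both lines. The 5 basal-like markers summed to 10.4 to 57.1 CPM in AsPC-1, where TP63, KRT5, KRT6A and KRT17 averaged under 1 CPM, and to 2171 to 4895 CPM in T3M-4. In clustering on the 500 most variable genes, members left out, the AsPC-1 libraries fell into 3 sets of 17, 17 and 8 that cut across the treatments (sets A, B and C below). NVP-2 experiment 1 lay in set A and NVP-2 experiment 2 in set B. KLF5 protein, not its RNA, is the degrader's target: T>C reads of KLF5 were higher after dTAG in both lines (log2 fold change 0.60 ± 0.11 SE, adjusted p = 0.0028, and 0.90 ± 0.15, adjusted p = 0.026), so they do not check the labels.

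Immediate-early genes are switched on within minutes of growth factor or stress signals without new protein synthesis, and their mRNAs are typically degraded fast, so that their levels follow transcription closely. EGR1 is a zinc finger transcription factor, and IER2, IER3 and IER5 are small signal-induced proteins. ZFP36 and ZFP36L1 bind AU-rich elements, which hold the pentamer ATTTA in DNA letters, in 3′UTRs and recruit the CCR4-NOT deadenylase, for which BTG1 and BTG2 are also partners. DUSP1 is a phosphatase that switches off MAP kinases, and RGS2 limits signalling by heterotrimeric G proteins. In GENCODE v44 on hg38 the genes are IER5 (chr1:181088700-181092900), RGS2 (chr1:192809039-192812275), BTG2 (chr1:203305491-203309602), EGR1 (chr5:138465479-138469303), DUSP1 (chr5:172768096-172771195), BTG1 (chr12:92140278-92145846), ZFP36L1 (chr14:68787660-68796253), IER2 (chr19:13150411-13154911), ZFP36 (chr19:39406847-39409412) and IER3, placed below.

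The sequences around these pentamers are shown for 4 members because AU-rich elements are a well-known feature of short-lived mRNAs. Each line gives 30 bases of a 3′UTR, 5′ to 3′ on the gene's strand in hg38, with every ATTTA in capitals.
IER5, chr1:181092448-181092477, plus strand: ttcctttATTTATTTATTTATTTAattata
ZFP36, chr19:39409188-39409217, plus strand: cctttATTTAtgacgactttATTTAttcta
DUSP1, chr5:172768641-172768670, minus strand: ggctggtccttATTTATTTAacttcacccg
ZFP36L1, chr14:68788345-68788374, minus strand: cttATTTAacttatcaaaacgtATTTAttg
Over the whole annotated 3′UTR, from 666 bases in DUSP1 to 3802 bases in BTG1, IER5 held 10 copies of ATTTA on the sense strand, ZFP36L1 8, IER3 6, ZFP36 and BTG1 5 each, DUSP1 4, BTG2 and RGS2 2 each, EGR1 1 and IER2 0. Copies may overlap. The longer motif TTATTTATT, which contains ATTTA, occurred 3 times in IER5, 2 times in DUSP1, and 1 time each in ZFP36 and ZFP36L1. In the last 300 bases of the 3′UTR, where 3′ end reads fall, 6 of the 10 members held ATTTA, against 49.3% of 15743 coding transcripts with a window of that length. TTATTTATT was there in 2 of 10 (ZFP36 and DUSP1), against 2.19% of those transcripts. A read is more likely to show a conversion the more T it holds, and T made up 25% (IER2) to 41.7% (DUSP1) of this window, against a median of 32% over all transcripts. The part of T content in the shares below was not tested.

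EGR1 is a textbook target of serum response factor, which binds the CArG box, so the promoter windows of the members in the RefSeq-based table (250 bases before to 50 after each start, GRCh38) were searched for it on both strands. Of the 9 members with a window, EGR1 held 2 boxes of the form CC, 6 bases of A or T, GG, and the other 8 held none, while 1.29% of 35116 windows had a box. IER3 was not in the table. Both EGR1 boxes are printed with the box in capitals.
EGR1, chr5:138465364-138465393, plus strand, box starting at base -105 from the start site: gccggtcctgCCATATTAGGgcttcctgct
EGR1, chr5:138465386-138465415, plus strand, box starting at base -83: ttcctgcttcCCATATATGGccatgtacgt

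IER3 (chr6:30743199-30744548) could not be followed in these tables. It had 0 T>C reads in 34 of 42 AsPC-1 libraries, with 14 in the highest, and 0 in 18 of 20 T3M-4 libraries, with 4 in the highest. Of all reads it had 0 in 27 of 41 AsPC-1 and 15 of 20 T3M-4 libraries, and at most 14 and 12. It passed the filter on low counts in no comparison, so every test below covers the other 9 members. The last 100 bases of its 3′UTR were also found on 5 other sequences among the 455 of the hg38 file, whereas those of the other 9 members occurred on 0. IER3 lies on chromosome 6. Of the 138 coding genes within 2 Mb, IER3 itself among them, 109 (79.0%) averaged under 0.1 CPM in the control libraries. Elsewhere this held for 30.4% of 18941 coding genes. Among the 131 genes of this window, IER3 included, whose 3′ end also occurs on another sequence the share was 80.9%. Among the 7 without such a copy it was 42.9%. Whether the copies account for the missing reads was not tested, and no statement about IER3 expression follows from these counts.

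The 9 measured members were among the most heavily labelled transcripts in both lines. The labelled share is the T>C reads of a gene as a percentage of all its reads, and does not depend on scaling between libraries. In AsPC-1 treated with DMSO for 4 h (n = 5) the mean share was 67.0% ± 3.85 (SD) for ZFP36, 63.9% ± 7.34 for DUSP1, 60.4% ± 6.42 for IER5 and 56.3% ± 8.21 for EGR1. It was 51.5% ± 8.44 for BTG2, 51.1% ± 2.42 for ZFP36L1, 47.1% ± 2.59 for IER2, 43.9% ± 2.76 for RGS2 and 36.3% ± 3.60 for BTG1. The median of 12115 genes was 15.3%, and the members stood between percentiles 90.2 (BTG1) and 99.9 (ZFP36). From ZFP36 down to ZFP36L1, neighbours in this order differed by less than the larger of their SDs, and the steps from ZFP36L1 to IER2, RGS2 and BTG1 were each larger than both SDs.

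In T3M-4 (DMSO 4 h, n = 4) DUSP1 had 86.7% ± 5.63 (SD), ZFP36 86.6% ± 5.44, IER5 81.9% ± 1.59 and BTG2 78.1% ± 6.94. EGR1 followed with 71.9% ± 4.45, IER2 with 69.1% ± 1.79, RGS2 and ZFP36L1 with 61.2% each (SD 1.70 and 1.64) and BTG1 with 44% ± 5.53. Here the steps from IER2 to RGS2 and from ZFP36L1 to BTG1 were larger than both SDs, and no other step was. The median of 13504 genes was 17.6%, and the members again stood between percentiles 88.9 and 99.9. A tested difference between the lines was present for 8 of the 9 members, all higher in T3M-4, against 13.5% of 13369 genes called higher (limma on the log2 odds of a T>C read, Benjamini-Hochberg adjusted p under 0.05 over all genes, as in every call below on shares). The changes ran from 0.60 ± 0.12 (SE) for ZFP36L1 to 1.97 ± 0.40 for DUSP1 on the log2 odds scale, against a median of 0.27 over all genes, which moved with the higher share of the whole T3M-4 libraries (11.1% to 14.1%, against 9.36% to 10.6%). BTG1 differed by 0.46 ± 0.20 (adjusted p = 0.14). EGR1's call (0.99 ± 0.29, adjusted p = 0.039) was lost when any 1 of 6 of the 9 libraries was left out, with limma adjusted p of 0.061 to 0.087.

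**Figure D1:**
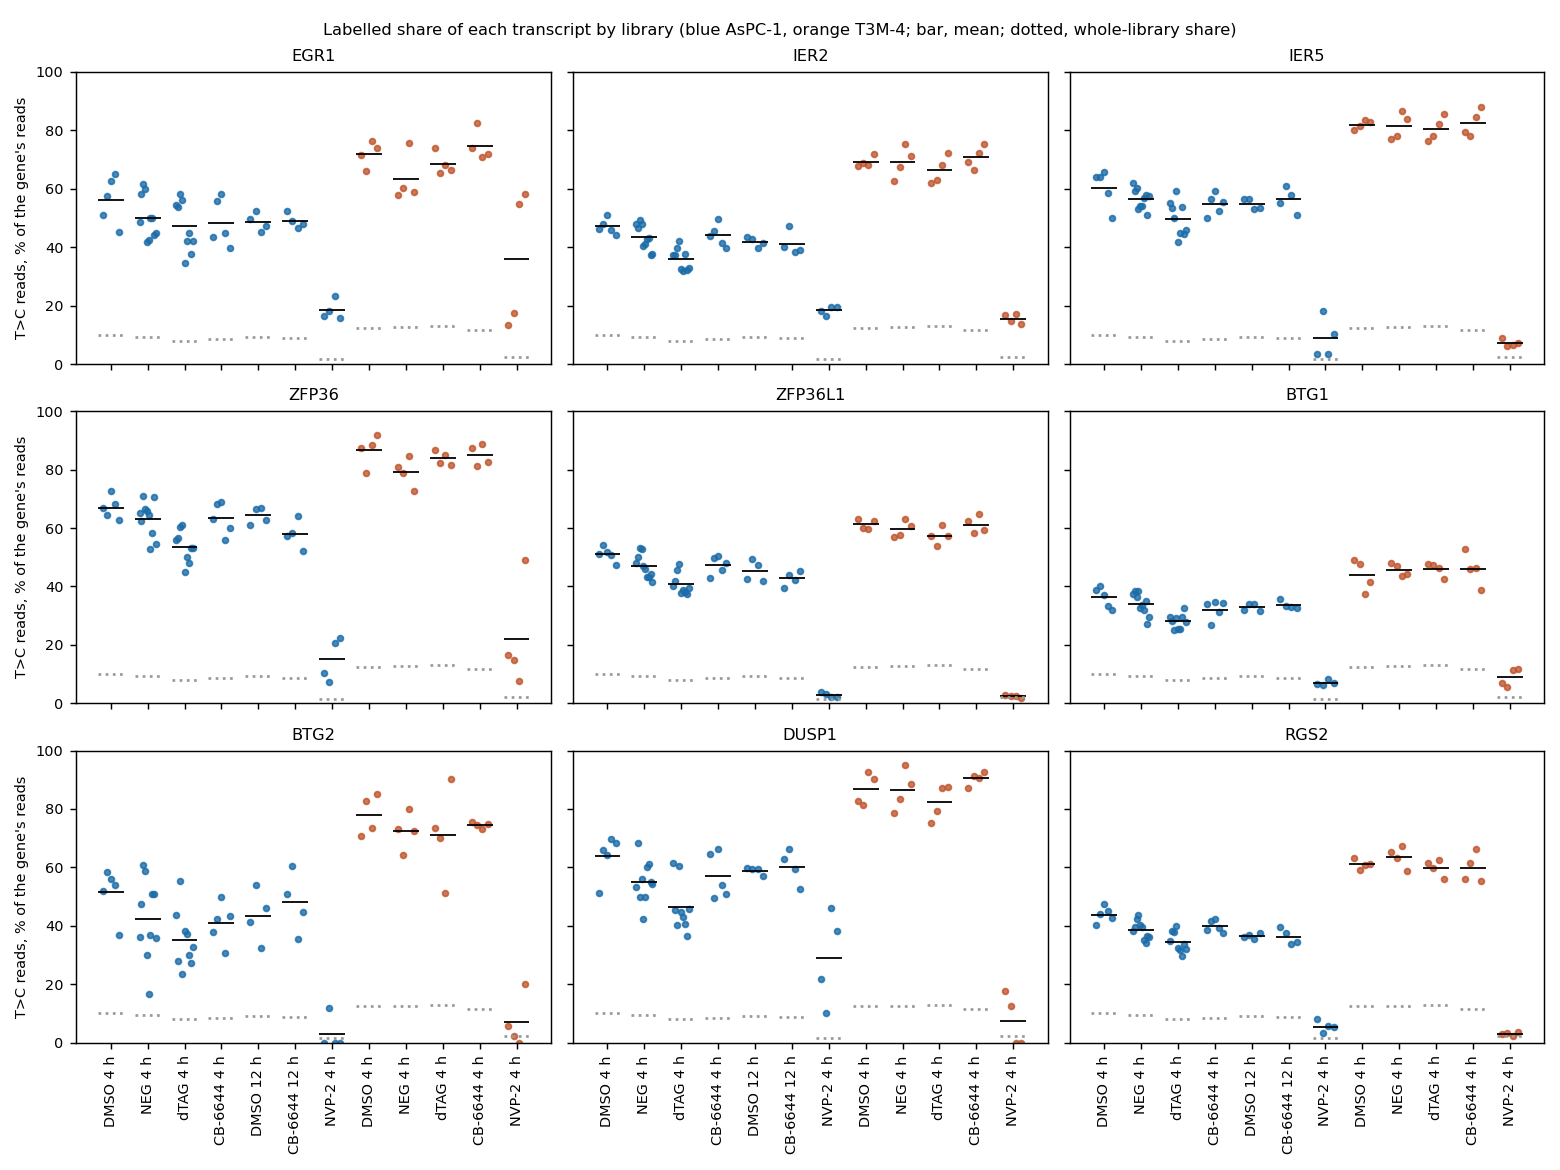
Labelled share of each member by library (y axis, T>C reads as a percentage of the gene's reads) in each of the 12 groups (x axis), AsPC-1 in blue and T3M-4 in orange, with a bar at the group mean and a dotted line at the share of the whole library. The 9 measured members lie far above the dotted line in every group but NVP-2, where the means fall to between 2.48% and 36.0%.

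Total RNA of all 9 measured members fell after 4 h of NVP-2 in both lines, which asked how much of each transcript was left when release of paused polymerase was inhibited. A gene's residual is its fitted level of all reads after NVP-2 as a percentage of DMSO 4 h. In AsPC-1 the residual was lowest for IER5 (5.59%), RGS2 (7.10%), BTG2 (7.69%), EGR1 (9.23%), ZFP36 (9.84%) and DUSP1 (13.2%), intermediate for IER2 (22%), and highest for BTG1 (38.4%) and ZFP36L1 (39.6%). In T3M-4 it was lowest for DUSP1 (6.31%), BTG2 (9.10%), IER5 (10.1%) and ZFP36 (11.9%), followed by IER2 (15.6%), RGS2 (16.7%) and EGR1 (30.8%), and again highest for ZFP36L1 (41.2%) and BTG1 (47.0%). The median gene stood at 104% in both lines, since the counts are scaled to the library, and 1 gene in 20 lay under 32.5% in AsPC-1 and under 38.6% in T3M-4. All 9 members were called lower in both lines (edgeR quasi-likelihood test, adjusted p of 0.00028 to 0.027 in AsPC-1 and 0.0010 to 0.044 in T3M-4), against 8.39% of 14095 genes called lower in AsPC-1 and 4.91% of 15653 in T3M-4. Because no spike-in was used and RNA was taken from bulk cultures, fewer cells and less RNA per cell cannot be told apart, and each level is relative to the library it came from.

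The levels of all reads by library show the spread behind these residuals. CPM are scaled within each comparison, so a DMSO library's value differs a little between comparisons, and libraries are named by experiment and library (1.2 is library 2 of experiment 1) and given in that order. IER5 had 2.80, 5.49, 2.59, 9.26 and 7.02 CPM in the AsPC-1 DMSO libraries and 0.38, 0.31, 0.33 and 0.19 CPM after NVP-2. RGS2 had 49.9, 51.5, 170, 90.1 and 94.5 CPM in DMSO and 4.15, 5.01, 7.15 and 9.61 CPM after NVP-2. EGR1 had 6.92, 8.65, 11.7, 21.3 and 9.14 CPM in DMSO and 1.13, 1.32, 0.89 and 0.91 CPM after NVP-2. For each of these genes every NVP-2 library lay below every DMSO library, and the highest DMSO library stood over 3-fold above the lowest.

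DUSP1 had 4.76, 2.81, 2.15 and 2.59 CPM of all reads in the T3M-4 DMSO libraries and 0.33, 0.31, 0.04 and 0.11 CPM after NVP-2. EGR1 had 2.66, 2.55, 2.04 and 2.40 CPM in DMSO and 0.47, 0.76, 0.84 and 0.91 CPM after NVP-2. BTG1, the member with the largest residual there, had 19.9, 21.6, 30.1 and 31.1 CPM in DMSO and 8.23, 17.9, 10.6 and 11.5 CPM after NVP-2. The groups did not overlap for any of these genes, and the highest NVP-2 value of BTG1 lay just under its lowest DMSO value.

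All AsPC-1 NVP-2 libraries belonged to batch 2 and all AsPC-1 DMSO 4 h libraries to batch 1, so batch and treatment cannot be told apart in that comparison. As batch 2 controls either the 4 NEG libraries of experiment 3 or the 4 DMSO 12 h libraries were used. The share of all genes called lower against them is not given here. Against each of these control sets 8 of the 9 members were again called lower in all reads. BTG1 was not (log2 change -1.41, adjusted p = 0.059, and -1.22, adjusted p = 0.12), and its call was also lost when 1 of 5 AsPC-1 libraries (DMSO 1.2, 2.1 or 2.2, NVP-2 2.1 or 2.2) was left out, with values of -1.38 to -1.14 and adjusted p of 0.054 to 0.068. The residuals of EGR1 and BTG2 against these controls were 14.2% and 15.5% with NEG and 14.7% and 13.0% with DMSO 12 h, above the 9.23% and 7.69% with DMSO 4 h. In T3M-4, where both batches held both groups, BTG1 lost its call without any 1 of 7 of the 8 libraries (log2 -1.19 to -0.95, adjusted p of 0.058 to 0.13) and ZFP36L1 without any 1 of 6 (log2 -1.36 to -1.09, adjusted p of 0.053 to 0.080).

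**Figure D2:**
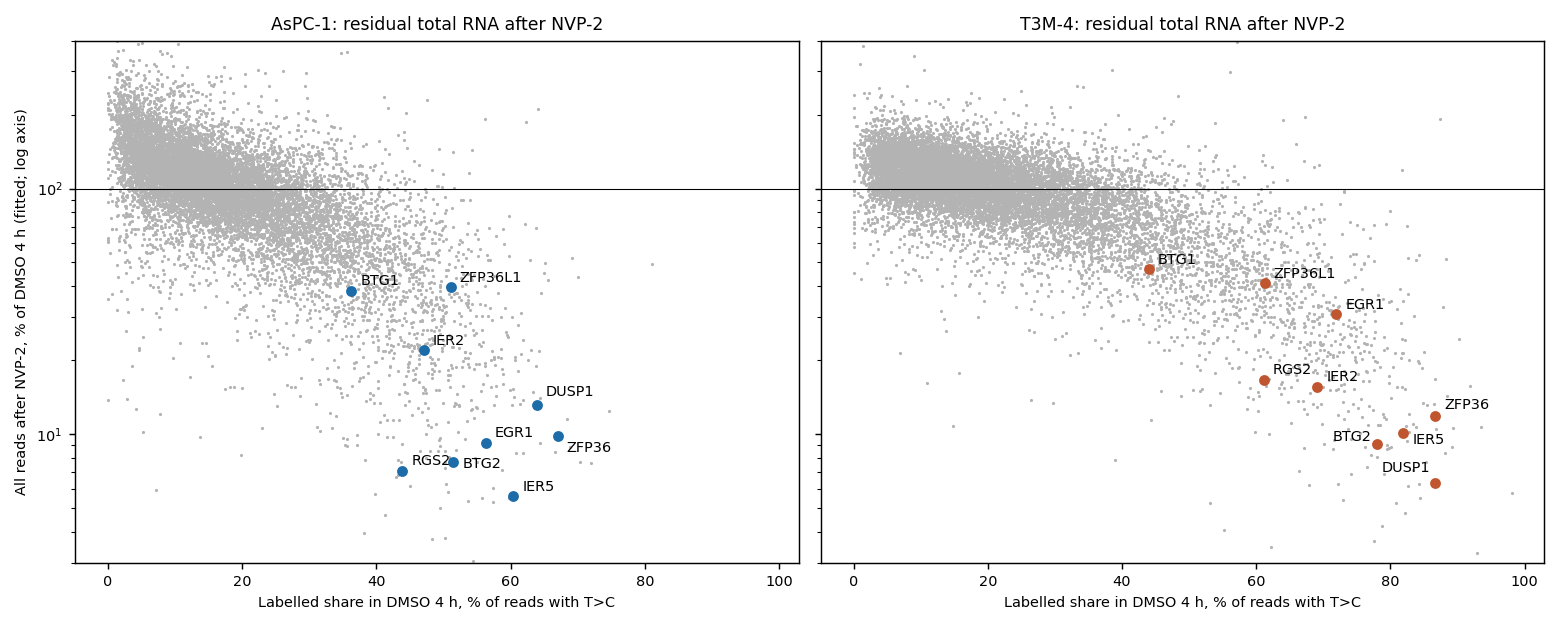
Residual total RNA after NVP-2 (y axis, fitted all reads as a percentage of DMSO 4 h, log axis) against the labelled share in DMSO 4 h (x axis, percent of the gene's reads), 1 point per member in AsPC-1 (left) and T3M-4 (right), with all tested genes in grey and a line at 100% marking no change. All 9 members lie under 50% in both lines, and ZFP36L1 and BTG1 lie highest.

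Labelled shares fell with NVP-2 for all 9 members in both lines, as they did for 93.6% of 12313 genes in AsPC-1 and 90.4% of 13469 in T3M-4. In AsPC-1 the mean share (n = 4) was 2.80% ± 0.911 (SD) for ZFP36L1, 3.0% ± 6.0 for BTG2, 5.52% ± 1.98 for RGS2, 6.99% ± 0.831 for BTG1 and 8.77% ± 7.10 for IER5. It was 15.2% ± 7.39 for ZFP36, 18.4% for both IER2 (SD 1.35) and EGR1 (SD 3.43), and 29.0% ± 16.2 for DUSP1, while the median gene stood at 1.66%. On the log2 odds scale IER2 (-1.98 ± 0.17 SE), DUSP1 (-2.22 ± 0.62), EGR1 (-2.52 ± 0.34) and BTG1 (-2.91 ± 0.25) fell by less than the median gene (-3.40), and the other 5 by more, with ZFP36L1 (-5.23 ± 0.22) lowest. Whether a member differs from the median gene was not tested.

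In T3M-4 the share of EGR1 after NVP-2 split by experiment. It was 13.4% and 17.5% in the libraries of experiment 1 and 54.7% and 58.2% in those of experiment 2, against 66.0% to 76.4% in DMSO. Its call (log2 odds -2.39 ± 0.85, adjusted p = 0.021) was lost without DMSO 2.1, NVP-2 1.1 or NVP-2 1.2 (-2.28, -1.85 and -1.99, adjusted p of 0.051 to 0.054). The other members averaged 2.48% (ZFP36L1) to 22% (ZFP36) there, with a median gene of 2.16%. ZFP36 itself ranged from 7.69% to 49.1% (SD 18.4), on 52 to 225 reads a library.

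Among the T>C reads that remained after NVP-2, most members took a smaller part than in DMSO. T>C CPM are scaled to the T>C reads of each library, which NVP-2 lowered as a whole. A value of 0 here is therefore the change of T>C reads as a whole. Background conversions were not subtracted, and their part in the T>C reads left after NVP-2 was not tested. In AsPC-1 6 of 9 members were called lower (edgeR, against 17.6% of 11498 genes): BTG2 (log2 -4.78 ± 0.98 SE), IER5 (-4.0 ± 0.62), RGS2 (-3.81 ± 0.51), ZFP36L1 (-2.60 ± 0.22), ZFP36 (-2.21 ± 0.62) and EGR1 (-2.14 ± 0.45). BTG1 (-0.79 ± 0.33, adjusted p = 0.092), DUSP1 (-0.75 ± 0.74, adjusted p = 0.47) and IER2 (-0.48 ± 0.32, adjusted p = 0.29) did not pass. In T3M-4 7 of 9 were called lower (against 14.2% of 12242 genes), namely BTG2 (-4.88 ± 0.70), RGS2 (-4.08 ± 0.29), IER5 (-4.06 ± 0.39), DUSP1 (-4.04 ± 0.85), ZFP36L1 (-3.05 ± 0.41), ZFP36 (-2.52 ± 0.52) and IER2 (-2.02 ± 0.41). BTG1 (-0.43 ± 0.41, adjusted p = 0.48) and EGR1 (0.57 ± 0.69, adjusted p = 0.57) did not pass.

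ZFP36L1 had 719, 907, 901, 1198 and 1094 T>C CPM in the AsPC-1 DMSO libraries and 144, 174, 156 and 163 T>C CPM after NVP-2. Its groups lay over 4-fold apart with little spread within NVP-2. IER2 had 258, 539, 274, 522 and 353 T>C CPM in DMSO and 150, 261, 286 and 422 T>C CPM after NVP-2, so that its groups overlapped. DUSP1 had 5.67, 6.87, 9.44, 27.5 and 10.9 T>C CPM in DMSO and 1.89, 0.82, 16.3 and 9.92 T>C CPM after NVP-2. Both NVP-2 libraries of experiment 1 lay below every DMSO library for DUSP1, and both of experiment 2 lay within the DMSO range. ZFP36 had 5.66 and 3.71 T>C CPM after NVP-2 in experiment 1 and 48.4 and 23.2 in experiment 2, all below the 61.9 to 138 in DMSO.

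EGR1 in T3M-4 had 11.7, 10.4, 12.4 and 14.2 T>C CPM in DMSO, and after NVP-2 2.89 and 4.98 in experiment 1 and 33.2 and 32.2 in experiment 2. The log2 difference of the means was -1.46 in experiment 1 and 1.29 in experiment 2, so the groups moved in opposite directions in the 2 experiments, which are also the 2 batches. All reads of EGR1 were below every DMSO library in both experiments (above). T>C counts were also scaled by the totals of all reads, so that a fall of T>C reads as a whole counts. All 9 members were then called lower in both lines, and EGR1 in T3M-4 turned to -2.56 ± 0.65 (edgeR adjusted p = 0.0036). The share of all genes called on that scale is not given here, so this count does not set the members apart. On that scale the median gene moved by -3.06 (AsPC-1) and -2.95 (T3M-4), and the members ranged from -3.56 (IER2) to -7.56 (BTG2) in AsPC-1 and from -2.56 (EGR1) to -7.68 (BTG2) in T3M-4. EGR1 in T3M-4 was thus the only member with a smaller fall than the median gene on that scale.

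Some of these values rest on few reads. BTG2 had 3 T>C reads over the 4 AsPC-1 NVP-2 libraries, all in library 1.2, so that the pooled ratio to DMSO was 3.64% with a Poisson interval (95%, counting error only) of 0.748% to 10.7%. In T3M-4 it had 8 T>C reads after NVP-2 (3.32%, 1.43% to 6.55%), and DUSP1 had 17, with 0 in both libraries of experiment 2 (6.35%, 3.69% to 10.2%). IER5 had 2, 10, 2 and 3 T>C reads in the AsPC-1 NVP-2 libraries, and ZFP36 had 28, 33, 4 and 26 in those of T3M-4. Without AsPC-1 NVP-2 library 1.2 BTG2 had no T>C read left after NVP-2, so its fitted change of -9.37 is no bound. Without NVP-2 library 2.1, ZFP36 moved from -2.21 to -3.16 in AsPC-1. With batch 2 controls ZFP36 lost its T>C call in AsPC-1 (log2 -1.61, adjusted p = 0.097, against NEG, and -1.74, adjusted p = 0.096, against DMSO 12 h), and EGR1 moved to -1.21 and -1.23, still called. With libraries summed per experiment, which left 2 sums a group, 0 of the 7 T3M-4 members kept an edgeR adjusted p under 0.05 (0.065 to 0.11), and all 7 did so with the experiment as a block.

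**Figure D3:**
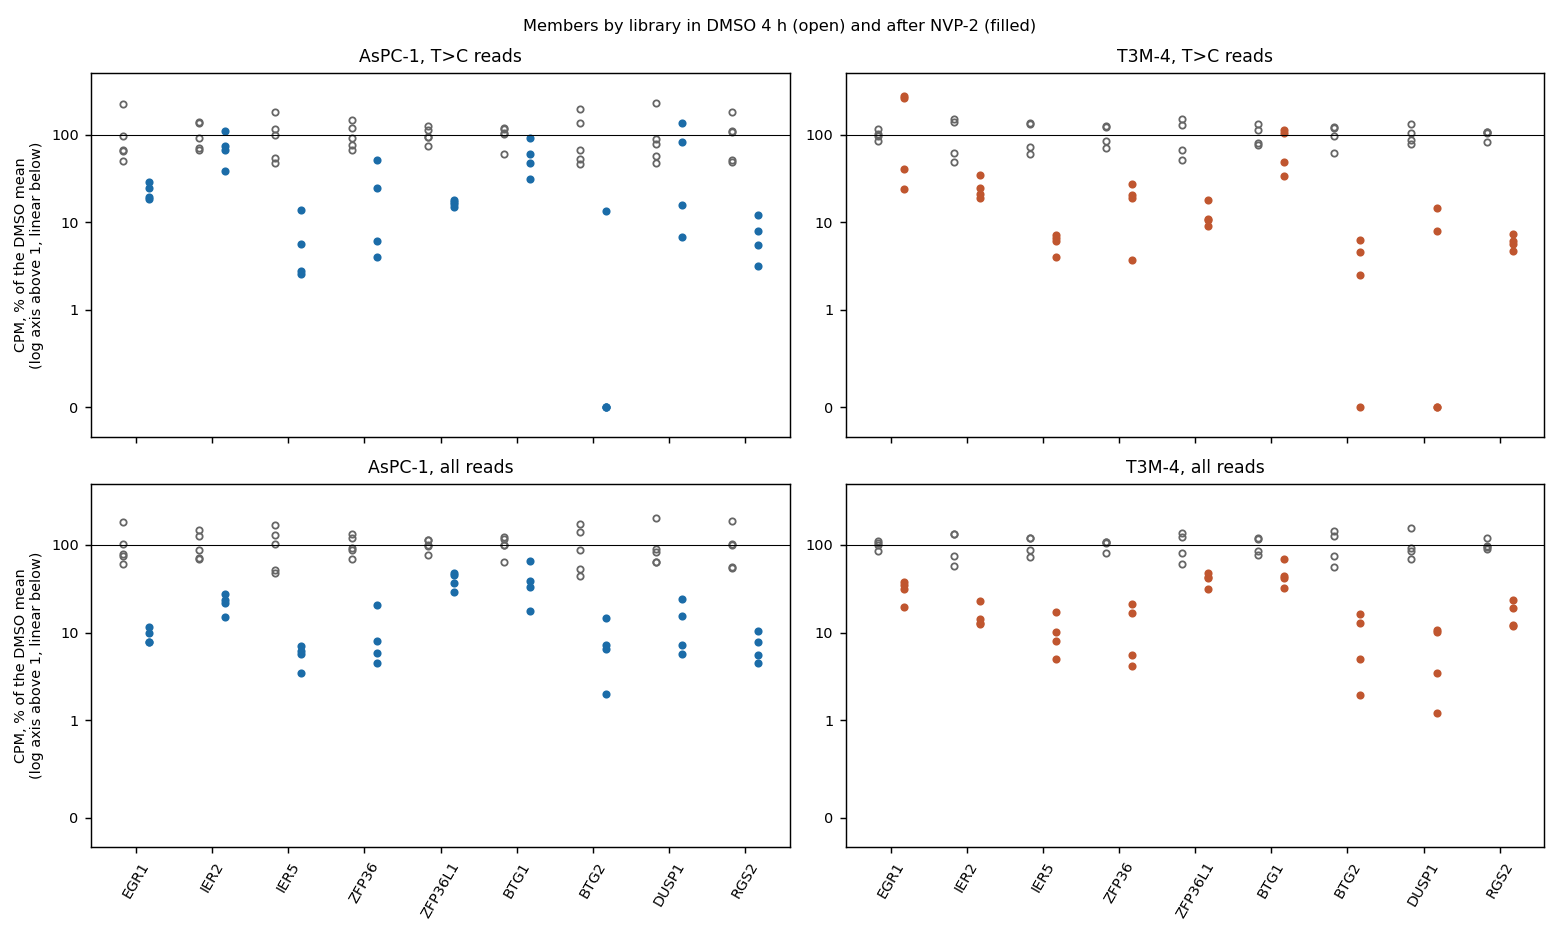
T>C reads (top) and all reads (bottom) of each member in every DMSO 4 h library (open) and every NVP-2 library (filled), as a percentage of the DMSO mean (y axis, log above 1 and linear below), in AsPC-1 and T3M-4. Filled points of all reads lie under 100% for each of the 9 members, whereas some filled T>C points of IER2 and DUSP1 in AsPC-1 and of EGR1 and BTG1 in T3M-4 lie above it.

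After 4 h of KLF5 degradation no member passed the main test in T>C reads, a fit without pairing, in either line. With same-numbered pairs as a block EGR1 and RGS2 passed in AsPC-1 and ZFP36L1 in T3M-4 (below). The share of all genes passing the blocked fit is not given here. The comparison of dTAG with NEG asked which transcripts respond directly to loss of KLF5. By edgeR without pairing 0 of 9 members passed in AsPC-1, where 2.4% of 11696 genes did, and 0 of 9 in T3M-4, where 0.834% of 13424 did. At an unadjusted p under 0.05 there were 2 members in AsPC-1 (EGR1 and IER2), beside 1413 of 11696 genes. In T3M-4 there were 3 (ZFP36L1, DUSP1 and BTG2), beside 957 of 13424 genes. DESeq2 called 1 in each line (EGR1, adjusted p = 0.020, and ZFP36L1, adjusted p = 0.031). The share of all genes it called is not given here. The p-values here and throughout measure the spread between libraries, some of which share an experiment and may be technical repeats.

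EGR1 in AsPC-1 had 18.0 (lowest), 28.6 (median) and 57.9 (highest) T>C CPM in the 10 NEG libraries and 24.1, 69.9 and 177 in the 10 dTAG libraries. The groups overlapped, but in each of the 10 same-numbered pairs the dTAG library was higher, by 0.14 to 3.29 on the log2 scale with a median of 0.75. The fitted change was 1.1 ± 0.33 (SE, adjusted p = 0.089), and with the pairs as a block it was 0.91 ± 0.25 (adjusted p = 0.039). By experiment it was 1.70, 0.46 and 0.46, so experiment 1 carried the largest part. In batch 1 alone, which holds experiments 1 and 2, it was 1.49 (adjusted p = 0.17).

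RGS2 in AsPC-1 differed more between sets of libraries than between treatments. Its NEG libraries had 147 to 188 T>C CPM in set A, 555 to 949 in set B and 195 to 217 in set C, and its dTAG libraries 272 to 396, 851 to 1071 and 271 to 279. In sets A and C every dTAG library was above every NEG library, and in set B the ranges overlapped. The change was 0.55 ± 0.40 (adjusted p = 0.69) over all libraries and 0.66 ± 0.12 (adjusted p = 0.0030) with the pairs as a block, with dTAG higher in 9 of 10 pairs. All reads of RGS2 gave 0.57 ± 0.39 (adjusted p = 0.91) and, blocked, 0.60 ± 0.11 (adjusted p = 0.0077).

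IER2 had 270 (lowest), 593 (median) and 784 (highest) T>C CPM in NEG and 199, 386 and 581 in dTAG, and was lower in 9 of 10 pairs. Its change of -0.57 ± 0.21 (adjusted p = 0.21) was -0.17, -0.50 and -1.15 in experiments 1, 2 and 3. With T>C counts scaled by all reads, where the median gene moved by -0.24, IER2 gave -0.84 (adjusted p = 0.019). The other 6 members had fitted changes between -0.23 (IER5) and 0.59 (BTG2).

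In T3M-4, ZFP36L1 had 649, 865, 1202 and 1162 T>C CPM in the NEG libraries and 501, 502, 648 and 560 in dTAG. The groups did not overlap, though the nearest libraries, NEG 1.1 and dTAG 2.1, were about level. The change was -0.81 ± 0.22 (adjusted p = 0.18), and with the pairs as a block -0.78 ± 0.13 (adjusted p = 0.025). In AsPC-1 the fitted difference of ZFP36L1 was 0.03 ± 0.16 (95% interval -0.28 to 0.34). The difference of the effects between the lines was -0.81 ± 0.29 (edgeR, unadjusted p = 0.0088, adjusted p = 0.67).

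DUSP1 and BTG2 were lower in all 4 same-numbered pairs of T3M-4. DUSP1 had 22.7, 19.8, 17.8 and 16.7 T>C CPM in NEG and 9.79, 16.7, 5.55 and 4.29 in dTAG. BTG2 had 19.0, 18.1, 10.8 and 18.6 T>C CPM in NEG and 10.5, 11.9, 2.31 and 5.82 in dTAG. DUSP1 touched at 16.7 and BTG2 overlapped, and both differences were larger in experiment 2 (log2 -1.79 and -1.83) than in experiment 1 (-0.68 and -0.73). Their fitted changes of -1.08 ± 0.39 and -1.12 ± 0.44 did not pass (adjusted p = 0.45 and 0.55), nor did they in the pair-blocked fit (adjusted p = 0.090 and 0.080). With the experiment as a block DUSP1 passed (-1.23 ± 0.28, adjusted p = 0.0495) and BTG2 did not (-1.28 ± 0.35, adjusted p = 0.10).

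**Figure D4:**
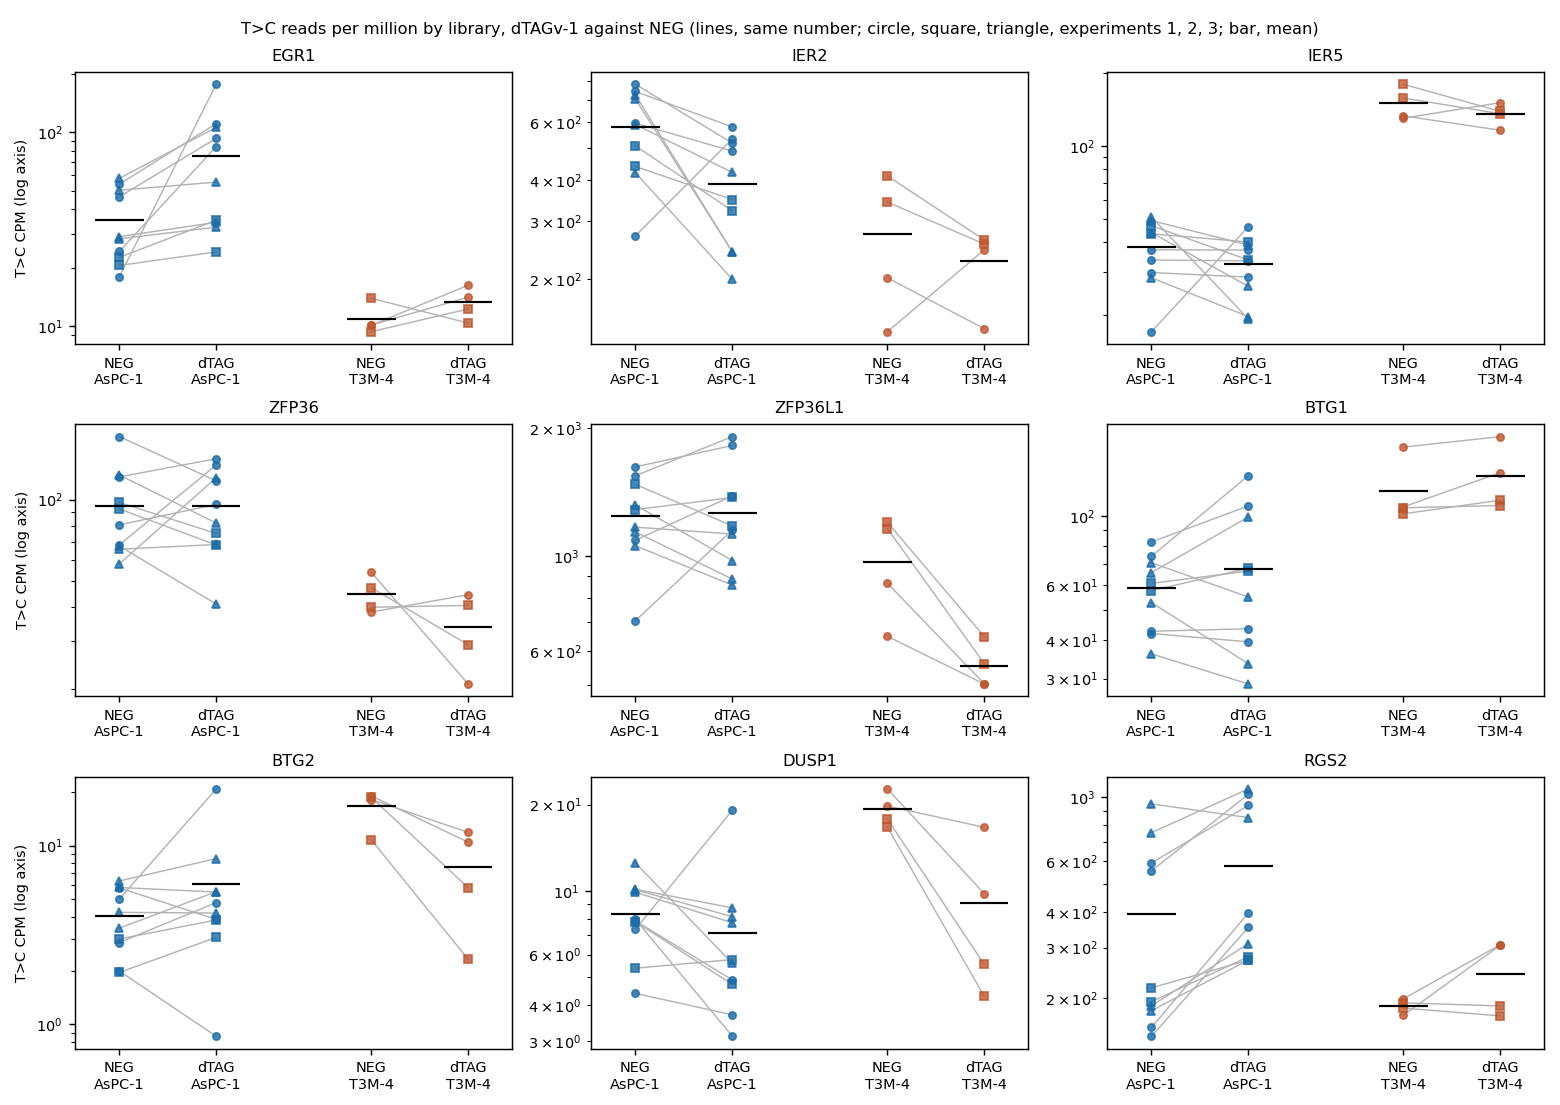
T>C CPM (y axis, log axis, its range set for each gene) of each member in every NEG and dTAG library of AsPC-1 (blue) and T3M-4 (orange), with lines between libraries of the same number, symbols for experiments 1 to 3 and bars at the means. EGR1 is higher at the dTAG end of all 10 lines in AsPC-1, where RGS2 forms separate levels in each group, and ZFP36L1, DUSP1 and BTG2 are lower at the dTAG end of all 4 lines in T3M-4.

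In all reads 0 of 9 members passed after dTAG without pairing (edgeR, 0.797% of 13931 genes in AsPC-1 and 0.0191% of 15727 in T3M-4). In that fit 2 and 3 members had an unadjusted p under 0.05, beside 1056 of 13931 and 533 of 15727 genes, and DESeq2 called 0. RGS2 in AsPC-1 passed with the pairs as a block (above). Labelled shares were lower after dTAG in AsPC-1 for 6 of 9 members, where 38.7% of 12334 genes were called lower and the median gene fell by 0.33 on the log2 odds scale. They were ZFP36 (63.2% in NEG, 53.7% in dTAG, log2 odds -0.58 ± 0.16 SE), IER2 (43.5% and 35.9%, -0.46 ± 0.11), BTG1 (34.1% and 28.1%, -0.40 ± 0.11), IER5 (56.6% and 49.8%, -0.39 ± 0.14), ZFP36L1 (47.0% and 40.8%, -0.36 ± 0.10) and RGS2 (38.6% and 34.5%, -0.26 ± 0.09), with limma adjusted p of 0.0053 to 0.039. The share of the whole library moved with them, from 7.93% to 10.1% in NEG to 7.58% to 8.67% in dTAG, and its part in the members' fall was not tested. EGR1 (50.1% and 47.1%), DUSP1 (55.1% and 46.5%) and BTG2 (42.4% and 35%) did not pass. In T3M-4 0 of 9 shares passed (limma, 0.25% of 13579 genes), with 0 at an unadjusted p under 0.05.

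After CB-6644, given to ask which transcripts respond to RUVBL1/2 inhibition, no member passed the test at 4 h or 12 h. The 4 h comparison, the NVP-2 comparison, that of NEG with DMSO and that between the lines share the DMSO 4 h libraries. In AsPC-1 at 4 h 0 of 9 passed by edgeR in T>C reads or all reads, as did 0% of 11649 and 0% of 13891 genes. EGR1 alone had an unadjusted p under 0.05 in either, beside 482 and 267 of those genes. EGR1 had 37.2, 50.2, 73.5, 166 and 48.6 T>C CPM in DMSO and 29.9, 54.5, 54.8, 29.1 and 24.2 after CB-6644. The change was -0.97 ± 0.40 (adjusted p = 0.98), and without DMSO library 2.1, the highest by far, it was -0.44 (adjusted p = 0.93). Labelled shares passed for 0 of 9 members and 1.89% of 12179 genes (limma). RGS2 alone had an unadjusted p under 0.05, beside 2809 of those genes. The members' median of -0.27 on the log2 odds scale equalled that of all genes.

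At 12 h in AsPC-1 0 of 9 members passed in T>C reads (edgeR, 0% of 12204 genes), all reads (0% of 14398) or shares (limma, 0.0158% of 12686). ZFP36 was the 1 member with an unadjusted p under 0.05, in T>C reads, beside 473 of 12204 genes. It had 111, 39.1, 65.9 and 134 T>C CPM in DMSO and 66.1, 54.8, 27.7 and 35.7 after CB-6644. These groups overlapped (-0.92 ± 0.40, adjusted p = 0.998). In T3M-4 0 of 9 passed in T>C reads (edgeR, 0% of 13444 genes), all reads (0.0127% of 15761) or shares (limma, 0% of 13516), and 0 had an unadjusted p under 0.05 in any of them. DESeq2 called 0 members in T>C reads or all reads in each of these CB-6644 comparisons.

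The inactive compound dTAGv-1-NEG was also set against DMSO at 4 h, in AsPC-1 with the 6 NEG libraries of experiments 1 and 2 and 5 DMSO libraries, all of batch 1. In AsPC-1 0 of 9 members passed (edgeR, 0% of 11895 genes in T>C reads and 0% of 14009 in all reads, and limma, 0.0164% of 12178 in shares). BTG2 (-1.70), EGR1 (-1.31) and DUSP1 (-1.12) had unadjusted p of 0.0018, 0.0067 and 0.0095 in T>C reads (each adjusted p = 0.65). There 878 of 11895 genes had an unadjusted p under 0.05. In all reads 3 members did, beside 606 of 14009 genes, and in shares 0 members did. The same DMSO library 2.1 was the highest of its group for these 3 genes, with 167 T>C CPM for EGR1, 33.4 for DUSP1 and 22 for BTG2. In T3M-4 0 of 9 passed (0% of 13465 genes in T>C reads, 0% of 15709 in all reads and 0% of 13500 in shares). EGR1 in T>C reads and ZFP36 in shares were the only members at an unadjusted p under 0.05, beside 255 and 295 genes. DESeq2 gave BTG2 and DUSP1 no adjusted p in AsPC-1 T>C reads (unadjusted p = 0.00014 and 0.0035), and it called 0 of the members that had one in T>C reads or all reads of either line.

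Members differed between the lines in both directions, in numbers close to the share of all genes that did. Under DMSO 4 h 5 of 9 members passed in T>C reads (edgeR, 48.4% of 13044 genes) and 6 of 9 in all reads (55.7% of 15464). EGR1 had 35.9, 48.5, 71.2, 161 and 47.1 T>C CPM in AsPC-1 and 14.8, 13.1, 15.1 and 17.3 in T3M-4, which was lower by a log2 change of -2.27 ± 0.42 (SE, adjusted p = 0.00094). IER5 was the reverse, with 18.3, 34.2, 16.6, 63.0 and 40.0 T>C CPM in AsPC-1 and 115, 95, 200 and 204 in T3M-4 (2.16 ± 0.40, adjusted p = 0.00098). Neither gene's groups overlapped. All 5 AsPC-1 libraries here were of batch 1, and T3M-4 experiment 2 was of batch 2.

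ZFP36 was also lower in T3M-4 (71.6, 82.8, 129, 161 and 99.2 against 32.3, 38.2, 53.4 and 55.3 T>C CPM, -1.28 ± 0.27, adjusted p = 0.0024), with no overlap. RGS2 was lower by -1.15 ± 0.36 (adjusted p = 0.021), which did not pass without T3M-4 library 1.2 (-1.07, adjusted p = 0.058). It had 204, 221, 788, 473 and 458 T>C CPM in AsPC-1 and 213, 162, 201 and 196 in T3M-4. AsPC-1 libraries 1.1 and 1.2, both of set A, were thus about level with T3M-4, and those of sets B and C lay above. BTG1 was higher by 0.76 ± 0.23 (adjusted p = 0.018), which did not pass without T3M-4 library 2.1 (0.67, adjusted p = 0.061) or 2.2 (0.62, adjusted p = 0.062). The call of IER2 in all reads (-0.97 ± 0.31, adjusted p = 0.022) did not hold without AsPC-1 library 1.2 or 2.1 or T3M-4 library 1.1 or 1.2 (-0.89 to -0.78, adjusted p of 0.052 to 0.067), and that of BTG1 in all reads not without AsPC-1 1.2 or T3M-4 2.1 or 2.2 (0.54 to 0.63, adjusted p of 0.054 to 0.088). BTG2 (0.96, adjusted p = 0.087) and DUSP1 (0.68, adjusted p = 0.20) did not pass in T>C reads, and did so without AsPC-1 library 2.1 (1.38, adjusted p = 0.015, and 1.24, adjusted p = 0.0051).

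Whether an effect differed between the lines was tested as an interaction on T>C reads, and 0 of 9 members passed by edgeR for dTAG (0.0426% of 14088 genes), CB-6644 at 4 h (0% of 13963) or NVP-2 (0.851% of 13159). The CB-6644 effect at 12 h against 4 h in AsPC-1 likewise passed for 0 of 9 (0% of 12720 genes). For NVP-2 3 members had an unadjusted p under 0.05, beside 1811 of 13159 genes. They were EGR1 (2.68 ± 0.85, T3M-4 minus AsPC-1, adjusted p = 0.15), IER2 (-1.56 ± 0.54, adjusted p = 0.18) and DUSP1 (-3.31 ± 1.17, adjusted p = 0.19). For dTAG 2 members had an unadjusted p under 0.05, ZFP36L1 (above) and BTG2 (-1.68 ± 0.69, adjusted p = 0.77), beside 824 of 14088 genes. For both CB-6644 tests 0 members did. DESeq2 called 1 member for NVP-2, EGR1 (2.70, adjusted p = 0.040), beside 594 of 13159 genes, and 0 members in the other tests.

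Most other immediate-early genes tested were also lower after NVP-2. In all reads 39 of 48 tested genes of that list were called lower in AsPC-1 (against 8.39% of all genes, median log2 change -2.49, all genes 0.06). In T3M-4 35 of 46 were called lower (against 4.91% of all genes, median -2.14, all genes 0.06), and 0 were higher in either line. The members' own medians were -3.35 and -2.68. Examples were SOCS3, an inhibitor of cytokine signalling (-5.09 and -4.19), and the kinase SGK1 (-6.56 and -3.21). In T>C reads scaled to T>C totals 29 of 46 were lower and 1 higher in AsPC-1 (median -2.01, 17.6% of all genes lower). In T3M-4 35 of 45 were lower (median -2.52, 14.2% of all genes lower). After dTAG the list had 3 higher and 2 lower of 45 in AsPC-1 T>C reads, where 2.4% of all genes were called in either direction. JUNB (-1.34), ID1 (-1.67), NR4A2 (1.12) and CSRNP1 (1.09) were among these list genes. In T3M-4 it had 1 lower of 47, JUNB (-1.24), where 0.834% of all genes were called.

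Relatives of the members from the ZFP36, BTG/TOB, DUSP and RGS families were lower after NVP-2 in part. Of these 11 of 17 were called lower in all reads in AsPC-1 (median -1.55, against 8.39% of all genes). In T3M-4 10 of 19 were (median -1.0, against 4.91% of all genes). The MAP kinase phosphatases DUSP2 (-6.24 and -5.61) and DUSP6 (-4.23 and -3.86) led them. After dTAG 4 of 17 relatives were called lower in AsPC-1 T>C reads, against 227 of 11696 genes. In the same fit 0 of the 9 members were called lower, and this difference was not tested. The 4 relatives called by edgeR were TOB1, a partner of the deadenylase (-1.11 ± 0.22, adjusted p = 0.0051), DUSP4 (-0.73 ± 0.09, adjusted p = 6.65e-05), ZFP36L2 (-0.62 ± 0.10, adjusted p = 0.0011) and RGS14 (-0.54 ± 0.14, adjusted p = 0.040). In T3M-4 0 of 19 were called (edgeR, 0.834% of all genes). At an unadjusted p under 0.05 there were 4, beside 957 of 13424 genes, and DESeq2 called 1.

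The deadenylation machinery, which ZFP36 and BTG proteins recruit or bind, had few differences in total RNA after NVP-2. By edgeR 0 of 14 genes passed in all reads in AsPC-1 (median 0.04) and 0 of 13 in T3M-4 (median 0.19). At an unadjusted p under 0.05 there were 1 and 2, beside 3869 of 14095 and 2541 of 15653 genes. DESeq2 called 1 in each line. Among serum response factor and 5 partners, MRTFA, an actin-regulated coactivator, passed in all reads in both lines and was lower (-1.92 and -1.29), and the other 5 did not pass. After dTAG 0 of 13 deadenylation genes passed in T>C reads in either line (0 and 1 at an unadjusted p under 0.05, 0 by DESeq2), nor did any of the 6 genes of the serum response factor group (0 at an unadjusted p under 0.05 and 0 by DESeq2).

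The genes whose T>C levels ran most like a member's over the 38 AsPC-1 and 16 T3M-4 libraries without NVP-2 were taken from 8616 genes by the smaller of the Pearson correlations in the lines, on log2(CPM + 1). For DUSP1 the nearest was GPRC5A (0.67 and 0.75, AsPC-1 and T3M-4), followed by BTG2 (0.66 and 0.86) and FOS (0.65 and 0.72). For BTG2 it was PAQR3 (0.69 and 0.73), followed by DUSP1. ZFP36 had EIF5AL1 (0.76 and 0.76) nearest, then MYC (0.73 and 0.72) and SOCS3 (0.72 and 0.76), IER2 had TRAF4 (0.82 and 0.88), IER5 had MAPKAPK2 (0.82 and 0.81) and ZFP36L1 had HMGA1 (0.77 and 0.75). EGR1 had no close match, with PFDN4 (0.52 and 0.48) and JUN (0.59 and 0.47) nearest. RGS2 had KRR1 (0.78 and 0.71) and BTG1 SUCLG2 (0.80 and 0.78). These libraries share batches and library sets, so the correlations describe the libraries and carry no test.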

How the data were processed

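SLAM-seq libraries were processed by the authors with slamdunk at default settings against hg38 with GENCODE v44 3′UTR exons. The deposited values were counts of T>C reads and of all reads per library, summed per gene, with replicates kept apart. From these counts TMM-scaled CPM and edgeR quasi-likelihood fits were computed (R 4.3.3, edgeR 4.0.16, limma 3.58.1, DESeq2 1.42.0), on the libraries of each comparison, with adjusted p (Benjamini-Hochberg) over all genes kept by filterByExpr and 0.05 as the threshold. All reads and T>C reads were fitted separately. Labelled shares were tested with limma on log2((T>C + 0.5)/(other reads + 0.5)) for genes averaging 50 reads or more. Conversion-based labelling depends on T content and read length, no library without 4sU was used here, and so background conversions were not subtracted. Where no spike-in exists, scaling to T>C totals removes a change shared by all new RNA.

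Groups and experiments came from the labels. All members were named, with list genes named by the 4 largest called changes per comparison and the 3 nearest genes by correlation among those averaging 5 T>C CPM or more. The members and lists were chosen with earlier results of these data known. Same-numbered libraries deviated together for dTAG (AsPC-1 r 0.264 to 0.544, T3M-4 0.167 to 0.453), so the numbers were taken to pair them. They did so too for CB-6644 in T3M-4 (0.163 to 0.435) and at 12 h (0.330 to 0.650) and for NEG against DMSO (AsPC-1 0.313 to 0.486, T3M-4 0.201 to 0.389), and did not in every pair of the other comparisons. For dTAG against NEG, libraries of the same experiment had a median r of 0.302 in AsPC-1 and 0.276 in T3M-4, whatever their number. Libraries of different experiments had -0.095 and -0.266. The NEG library most like a dTAG library bore its number for 5 of 10 in AsPC-1 and 3 of 4 in T3M-4. How far pairs share more than their experiment was not tested, and the pair-blocked calls rest on this pairing. The fits were tested on simulated data with known changes. In the 1 skipped column of all reads 8047 genes had fewer reads than T>C reads, against 0 in the other 61 libraries, and 18 unnamed empty columns were left out. Poisson intervals (95%) cover counting error only.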

Additional observations from a re-analysis of the deposited data

Results flagged for a closer look

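In 23 of 324 groups of 4 to 10 libraries, 1 library stood apart from the rest by Dixon's criterion, which chance alone would give in about 1 group in 20. AsPC-1 CB-6644 4 h library 1.1 was low for ZFP36L1 (723 T>C CPM, others 1231 to 1340, and 140 CPM of all reads, others 224 to 237) and high for BTG1 (116, others 53.2 to 63.2, and 28.4 of all reads, others 14.2 to 17.1). DMSO 4 h library 2.1 was high for EGR1 (166 T>C CPM, others 37.2 to 73.5) and DUSP1 (33.1, others 6.80 to 13.0, and 4.25 of all reads, others 1.36 to 1.89), and library 1.3 was low for BTG1 (35.8, others 60.9 to 70.3). DMSO 12 h library 1 was high for EGR1 (58.8 T>C CPM, others 35.8 to 39.3, and 10.9 of all reads, others 6.79 to 7.21). The dTAG library 1.1 was high for BTG2 (20.8 T>C CPM, others 0.859 to 8.46) and DUSP1 (19.1, others 3.11 to 8.74). NVP-2 library 1.2 held all T>C reads of BTG2 (1.24 T>C CPM, a share of 12.0%, others 0).

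In T3M-4, CB-6644 library 1.1 was low for IER2 (269 T>C CPM, others 433 to 459) and IER5 (103, others 177 to 185), and DMSO library 1.1 for ZFP36 in all reads (5.09 CPM, others 6.60 to 6.68). NEG library 2.1 was high for EGR1 (13.9 T>C CPM, others 9.35 to 10.1, and a share of 75.8%, others 57.9% to 60.3%) and low for BTG2 (10.8, others 18.1 to 19.0). NEG library 1.2 was high for BTG1 (166 T>C CPM, others 101 to 107, and 45.7 of all reads, others 28.3 to 28.6), and dTAG library 1.2 low for IER2 (141 T>C CPM, others 245 to 263).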

How the results depend on the processing

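The count of members called moved with the fit mainly after dTAG. In AsPC-1 T>C reads it was 0, and 1 by DESeq2 (EGR1), 1 when scaled by all reads (IER2), 2 with the replicate block of same-numbered pairs (EGR1 and RGS2) and 2 with library set and experiment as blocks, and in all reads it was 0, and 1 with the replicate block (RGS2). In T3M-4 T>C reads it was 0, and 1 by DESeq2, 1 with the replicate block, 1 with counts summed per experiment and the experiments paired and 1 in batch 2 alone (each ZFP36L1), and 2 with experiment as a block (ZFP36L1 and DUSP1). After NVP-2 in T3M-4 the T>C count of 7 was 0 when libraries were summed per experiment, which left 2 sums a group, and EGR1 went from 0.57 to -2.56 when scaled by all reads. The NVP-2 difference between lines went from 0 to 1 by DESeq2 (EGR1), which called 594 of 13159 genes there. The causes were not tested. For the other alternatives the share of all genes called is not given here, so these counts do not set the members apart. The block changed no other call. Leaving out 1 library at a time gave counts of 6 to 7 (AsPC-1) and 7 to 7 (T3M-4) for T>C reads after NVP-2, 8 to 9 and 7 to 8 for all reads, 8 to 9 for T3M-4 shares, and 4 to 7, 4 to 6 and 7 to 8 for T>C reads, all reads and shares between the lines. Of the comparison-level values under all alternatives 401 stayed within 1.5 times of the main count and 12 did not, and of single-gene values 3445 were the same, 196 moved, 23 gained and 52 lost their call and 1 reversed. Low T>C counts after NVP-2 limit BTG2 and DUSP1, and also IER5 in AsPC-1 and ZFP36 in T3M-4.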
